A study of Mus musculus with 9 samples.

Results

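The extracellular matrix and mesenchymal genes described here are 38 genes picked by symbol from the 23366 gene entries of the deposited count tables, and all 38 symbols were found. They are 5 chains of fibrillar collagens, 3 chains of collagen VI, 2 collagens that anchor epithelia, 2 fibril-associated collagens, 3 genes of the basement membrane, 5 glycoproteins and elastic fibre proteins, 8 matricellular and secreted proteins, 4 small leucine-rich proteoglycans, 4 enzymes and inhibitors, and a pair made of a collagen receptor and an intermediate filament. Fibroblasts lay down most of the interstitial matrix of a gland, where fibrils of collagen I, III and V are cross-linked by lysyl oxidase and lined with small proteoglycans. Epithelial cells rest on a basement membrane of laminin, collagen IV and nidogen, to which they are fastened by their own collagens, and cultured epithelial cells also secrete fibronectin, tenascin and thrombospondin. Several of these genes are known targets of TGF-beta or of YAP and TEAD.

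RNA-seq was performed on mSGc, a spontaneously immortalized epithelial line grown out of the submandibular gland of adult male C57BL/6 mice, and on IMOK, immortalised oral keratinocytes of adult C57BL/6 mice. The mSGc libraries came from P2, P4, P10 and P25 cells in SFM and from P10 and P25 cells in SCM, with 1 library per condition, so that a difference between a pair of these libraries has no replicate check. SFM, a defined medium with growth factors and dexamethasone, was taken as the medium that the labels call progenitor, and SCM, which holds serum, retinoic acid and hydrocortisone, as the differentiating medium. IMOK were sequenced as 3 replicates in a medium of their own, at a passage that the labels call early and the study takes as equal to that of P10 mSGc, so cell line, medium and experiment cannot be told apart when mSGc and IMOK are compared. The labels do not say whether the IMOK replicates were separate cultures, so the spread between them may be technical. The mSGc libraries are passages and media of a single line and not replicates. In the comparison with IMOK their spread therefore holds differences of passage and medium. All p-values measure only the spread between these libraries. Reads counted on genes came to 10879981 at P2, 17089965 at P4, 8891878 (SFM) and 13186820 (SCM) at P10, 15438288 (SFM) and 6237884 (SCM) at P25, and 18444963, 18073866 and 16848411 in IMOK replicates 1, 2 and 3. Levels are given as TPM computed from counts and exon lengths. Ratios between single libraries are given with their 95% counting interval, or against a floor of 3 counts where a library had none, and such intervals and floors cover counting error only.

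A pair of libraries stood apart in these genes. The summed level of the 38 genes was 8958 TPM at P2, 4576 at P4, 2923 (SFM) and 4159 (SCM) at P10, 2852 (SFM) and 1880.0 (SCM) at P25, and 6009, 2643 and 3192 in IMOK replicates 1, 2 and 3. The sum was highest at P2 and lowest at P25 in SCM among mSGc libraries, and IMOK replicate 1 lay above the other IMOK replicates. Of the 33 genes that reached 1 TPM in at least 1 mSGc library, 20 had their highest mSGc level at P2, whereas 23.7% of all genes with that level did. Of the 27 genes that reached 1 TPM in IMOK, 26 were highest in replicate 1, against 57.1% of all genes. A gene could reach 1 TPM in its highest library alone. In IMOK *Col1a1*, *Fbn1*, *Postn* and *Lox* did so in replicate 1, and in mSGc *Nid1* and *Bgn* did so at P2. For such genes the highest library was fixed beforehand, so these counts describe the genes and support no difference of the set. Because of the sums, the results below are given with and without the P2 library and IMOK replicate 1 where they rest on them.

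Epithelial identity was checked first. All 9 epithelial markers (*Krt5*, *Krt14*, *Krt8*, *Krt18*, *Epcam*, *Cdh1*, *Trp63*, *Esrp1* and *Esrp2*) were at 10 TPM or more in each of the 9 libraries, with sums of 21075 TPM at P2, 24355 at P4, 16329 (SFM) and 18485 (SCM) at P10, 21298 (SFM) and 13424 (SCM) at P25, and 11882, 10707 and 10220.2 in IMOK replicates 1, 2 and 3. Of 11 fibroblast markers at most 3 reached 1 TPM in any library, with sums of 53.1 TPM at P2, 62.2 at P4, 26.4 (SFM) and 80.2 (SCM) at P10, 92.0 (SFM) and 147 (SCM) at P25, and 24.1, 150.1 and 113 in IMOK replicates 1, 2 and 3. Most of this came from *S100a4* (fibroblast-specific protein, also made by other cells) and *Twist1*, which were detected in each library. The most abundant was *S100a4* in all libraries but IMOK replicate 1, where it was *Twist1* at 17.4 TPM. *Tcf21* had no counts in any of the 9 libraries, the platelet-derived growth factor receptors *Pdgfra* and *Pdgfrb* lay at or under 0.435 and 0.489 TPM, and *Thy1* was at 3.92 TPM at P2 and at most 0.0668 TPM elsewhere. *Prrx1*, a homeobox gene of connective tissue, was at 2.31 TPM at P2, 1.03 at P4, 2.86 (SFM) and 0.573 (SCM) at P10, 0 (SFM) and 0.0428 (SCM) at P25, and 0.0473, 0.0156 and 0.0335 in IMOK replicates 1, 2 and 3.

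The sums of the 7 smooth muscle and myoepithelial markers spanned a wider range than those of the fibroblast markers. They were 773 TPM at P2, 126 at P4, 11.4 (SFM) and 76.8 (SCM) at P10, 51.0 (SFM) and 7.97 (SCM) at P25, and 965, 10.3 and 15.6 in IMOK replicates 1, 2 and 3. Single fibroblast markers also ranged widely, with *Thy1* highest at P2, *Prrx1* at P10 in SFM and *S100a4* at P25 in SCM. *Acta2* (smooth muscle actin) was the most abundant of them in every library, at 544 TPM at P2, 106 at P4, 7.86 (SFM) and 73.0 (SCM) at P10, 48.0 (SFM) and 5.08 (SCM) at P25, and 879.8, 7.08 and 13.8 in IMOK replicates 1, 2 and 3. The libraries with the most *Acta2*, P2 and IMOK replicate 1, were also those with the highest sums of matrix genes. *Tagln* (transgelin) was at 199 TPM at P2, 16.9 at P4, 3.02 (SFM) and 3.39 (SCM) at P10, 2.37 (SFM) and 2.81 (SCM) at P25, and 69.3, 0.731 and 0.551 in IMOK replicates 1, 2 and 3. *Cnn1* (calponin) was at 21.2 TPM at P2, 1.51 at P4 and 0 in the later mSGc libraries. The part of myoepithelial-like, contractile or fibroblast cells in the levels of the matrix genes was not tested. Endothelial markers (7 genes) summed to at most 1.18 TPM in a library, with *Kdr* the most abundant at P2 and P4 and *Pecam1* in the others, except that all 7 had 0 counts at P25 in SCM. Of 8 leukocyte markers *Cd3e* and *Emr1* had no counts in any library and *Ptprc* at most 3, and only *Cd68* reached 1 TPM, at 1.88 to 4.10 TPM in mSGc and 33.4, 8.74 and 4.58 in IMOK replicates 1, 2 and 3.

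Across the 9 libraries 15 of the 38 genes were at 1 TPM or more throughout, 18 reached it in some libraries, and 5 (*Col6a3*, *Lama2*, *Lum*, *Aspn* and *Ddr2*) stayed below it in all. The 15 included all 4 collagens of epithelial anchorage and fibril association, *Fn1*, *Fbln1*, 6 of the 8 matricellular genes, *Timp2* and *Vim*. None of the 5 fibrillar collagen chains and none of the 4 small proteoglycans was among them.

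**Figure D1:**
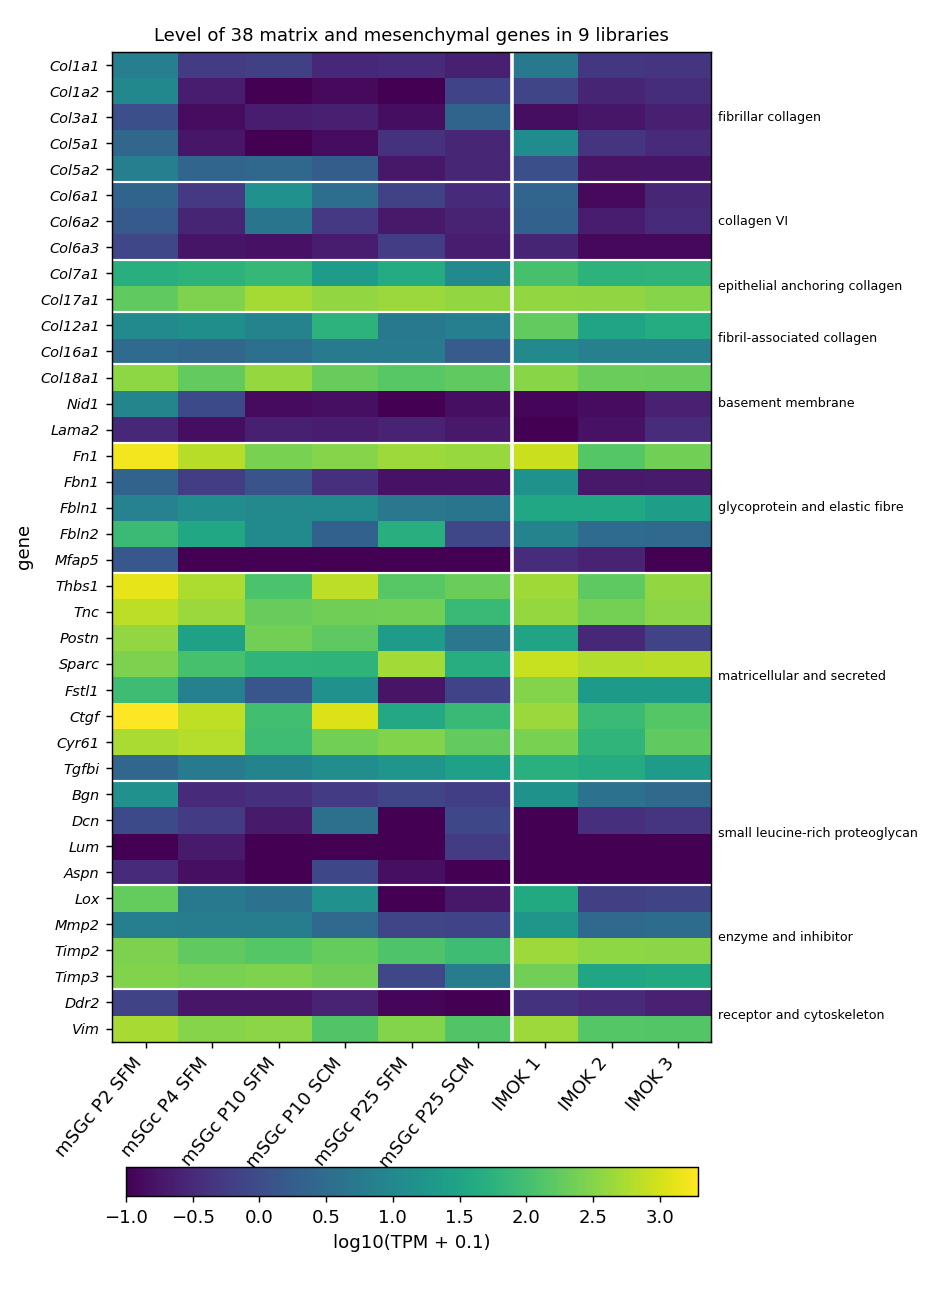
Level of each of the 38 genes, grouped by role, in the 6 mSGc and 3 IMOK libraries, as log10 of TPM + 0.1; the thick line parts the lines. Anchoring collagens, *Fn1*, *Thbs1*, *Tnc*, *Sparc* and *Timp2* are high throughout, while fibrillar collagens and small proteoglycans are mostly low outside P2 and IMOK replicate 1.

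Collagen I, the main fibril of connective tissue, is made of chains encoded by *Col1a1* and *Col1a2*. *Col1a1* was at 6.68 TPM at P2, 0.474 at P4, 0.555 (SFM) and 0.202 (SCM) at P10, 0.225 (SFM) and 0.136 (SCM) at P25, and 5.25, 0.395 and 0.345 in IMOK replicates 1, 2 and 3. *Col1a2* was at 9.88 TPM at P2, 0.108 at P4, 0 (SFM) and 0.0307 (SCM) at P10, 0 (SFM) and 0.619 (SCM) at P25, and 0.684, 0.180 and 0.267 in IMOK replicates 1, 2 and 3. Both were highest at P2, and from P4 on neither passed 0.619 TPM in mSGc. Against P25 in SFM the P2 level was 29.6-fold (interval 15.2 to 65.9) higher for *Col1a1* and at least 144-fold higher for *Col1a2*. *Col3a1*, the chain of the thin reticular fibrils, was at 1.02 TPM at P2, 0.0400 at P4, 0.117 (SFM) and 0.142 (SCM) at P10, 0.0423 (SFM) and 2.29 (SCM) at P25, and 0.0422, 0.0834 and 0.135 in IMOK replicates 1, 2 and 3. Its highest level was at P25 in SCM, unlike that of collagen I. For all these genes the ranges of mSGc and IMOK overlapped.

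Collagen V sets the width of collagen I fibrils. Its chain *Col5a1* was at 2.47 TPM at P2, 0.0795 at P4, 0 (SFM) and 0.0376 (SCM) at P10, 0.308 (SFM) and 0.190 (SCM) at P25, and 11.9, 0.359 and 0.223 in IMOK replicates 1, 2 and 3, and was highest in IMOK replicate 1. *Col5a2* followed the mSGc passages instead, at 7.08 TPM at P2, 2.36 at P4, 2.70 (SFM) and 1.77 (SCM) at P10, 0.0889 (SFM) and 0.193 (SCM) at P25, and 0.993, 0.0701 and 0.0754 in IMOK replicates 1, 2 and 3. It stayed above 1 TPM up to P10 in both media and lay below it at P25. Between single libraries P10 was 30.3-fold (interval 12.5 to 95.8) above P25 in SFM and 9.18-fold (interval 3.44 to 34.6) above it in SCM.

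Collagen VI forms beaded filaments between fibrils and cells. *Col6a1* was at 2.28 TPM at P2, 0.420 at P4, 14.6 (SFM) and 3.42 (SCM) at P10, 0.592 (SFM) and 0.240 (SCM) at P25, and 2.39, 0.0292 and 0.188 in IMOK replicates 1, 2 and 3. *Col6a2* was at 1.52 TPM at P2, 0.179 at P4, 4.49 (SFM) and 0.424 (SCM) at P10, 0.0946 (SFM) and 0.171 (SCM) at P25, and 2.01, 0.124 and 0.234 in IMOK replicates 1, 2 and 3. Both chains were highest at P10 in SFM, and *Col6a3*, which encodes the largest chain, spanned only 0.0602 to 0.715 TPM in mSGc and 0.0214 to 0.173 TPM in IMOK. The P10 library in SFM was 24.7-fold (interval 15.7 to 41.0) above P25 in SFM for *Col6a1* and 47.4-fold (interval 15.6 to 235) above it for *Col6a2*.

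The collagens that fasten epithelia were abundant in both lines. *Col17a1*, the hemidesmosomal collagen, was at 171 TPM at P2, 287 at P4, 513 (SFM) and 385 (SCM) at P10, 434 (SFM) and 396 (SCM) at P25, and 391, 369.9 and 326 in IMOK replicates 1, 2 and 3. It was lowest at P2, where most other matrix genes were highest, and the lines overlapped. *Col7a1*, the collagen of anchoring fibrils, spanned 10.7 to 72.0 TPM in mSGc, within which 2 of the 3 IMOK values fell (58.7 to 108 TPM), and its counts may include reads of *Mir711*, whose exon overlaps it. The fibril-associated *Col12a1* was at 11.2 TPM at P2, 13.8 at P4, 8.06 (SFM) and 59.9 (SCM) at P10, 5.21 (SFM) and 7.10 (SCM) at P25, and 183, 31.3 and 44.6 in IMOK replicates 1, 2 and 3. It was highest in IMOK replicate 1 and, within mSGc, at P10 in SCM. *Col16a1*, also fibril-associated, lay at 1.59 to 5.78 TPM in mSGc and higher, without overlap, in IMOK (7.14 to 10.4 TPM).

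Of the basement membrane genes, *Col18a1* (the precursor of endostatin) was abundant, at 151 to 411 TPM in mSGc and 197 to 333 TPM in IMOK. *Nid1*, nidogen, which links laminin to collagen IV, was at 8.91 TPM at P2, 0.829 at P4, 0.0360 (SFM) and 0.0523 (SCM) at P10, 0 (SFM) and 0.0527 (SCM) at P25, and 0.0194, 0.0384 and 0.144 in IMOK replicates 1, 2 and 3. Nearly all of its reads were from early mSGc, with 285 counts at P2 and 45 at P4, and at most 2 in a later mSGc library. *Lama2*, a laminin chain of muscle and mesenchyme, was at 0.214 TPM at P2, 0.0459 at P4, 0.134 (SFM) and 0.114 (SCM) at P10, 0.157 (SFM) and 0.0984 (SCM) at P25, and 0, 0.0597 and 0.244 in IMOK replicates 1, 2 and 3. Its counts were few everywhere, with at most 13 in an mSGc library, and it had none in IMOK replicate 1.

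*Fn1*, fibronectin, the adhesive glycoprotein of provisional matrix, was among the most abundant of the 38 genes, at 1598 TPM at P2, 659 at P4, 263 (SFM) and 315 (SCM) at P10, 456 (SFM) and 425 (SCM) at P25, and 873, 142 and 237 in IMOK replicates 1, 2 and 3. It was highest at P2 and lowest in IMOK replicate 2, and IMOK replicate 1 lay above the mSGc libraries from P4 on. *Fbn1*, fibrillin of the elastic microfibrils, was at 2.25 TPM at P2, 0.495 at P4, 1.16 (SFM) and 0.271 (SCM) at P10, 0.0594 (SFM) and 0.0643 (SCM) at P25, and 15.8, 0.0937 and 0.101 in IMOK replicates 1, 2 and 3. Outside IMOK replicate 1 its highest level was that of P2. *Fbln1*, fibulin of elastic fibres and basement membranes, was at 7.99 TPM at P2, 12.3 at P4, 10.4 (SFM) and 10.9 (SCM) at P10, 5.15 (SFM) and 4.46 (SCM) at P25, and 35.6, 36.8 and 25.4 in IMOK replicates 1, 2 and 3. Every mSGc library lay below every IMOK library for this gene. *Fbln2*, its relative, was at 83.9 TPM at P2, 35.0 at P4, 11.2 (SFM) and 2.05 (SCM) at P10, 49.7 (SFM) and 0.711 (SCM) at P25, and 8.20, 3.08 and 2.87 in IMOK replicates 1, 2 and 3. In SFM its levels exceeded those in SCM at both passages, and the ranges of mSGc and IMOK overlapped. *Mfap5*, a microfibril-associated protein, had 10 counts at P2 (1.34 TPM), none in the other mSGc libraries, and 3, 2 and 0 in IMOK replicates 1, 2 and 3.

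The matricellular genes, whose proteins bind matrix and receptors without forming fibrils, included the most abundant of the 38 genes in 6 of the 9 libraries. *Ctgf* (connective tissue growth factor, CCN2) was at 1931 TPM at P2, 740.3 at P4, 96.3 (SFM) and 1157 (SCM) at P10, 37.8 (SFM) and 78.2 (SCM) at P25, and 443, 84.0 and 145 in IMOK replicates 1, 2 and 3. *Cyr61* (CCN1) was at 557 TPM at P2, 653 at P4, 90.7 (SFM) and 238 (SCM) at P10, 303 (SFM) and 179 (SCM) at P25, and 269, 64.6 and 173 in IMOK replicates 1, 2 and 3. *Thbs1* (thrombospondin) was at 1340.3 TPM at P2, 576 at P4, 119 (SFM) and 712 (SCM) at P10, 151 (SFM) and 209 (SCM) at P25, and 472, 166 and 387 in IMOK replicates 1, 2 and 3. *Ctgf* and *Thbs1* shared an order within mSGc in which P2, P10 in SCM and P4 were the highest libraries, while *Cyr61* was highest at P4 and P2, and all 3 genes overlapped between the lines. *Tnc* (tenascin C, a protein of remodelled matrix) was at 736 TPM at P2, 438 at P4, 198 (SFM) and 223 (SCM) at P10, 237 (SFM) and 75.8 (SCM) at P25, and 403, 244 and 351 in IMOK replicates 1, 2 and 3. Its IMOK values lay within the mSGc range.

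*Sparc* (osteonectin, which binds collagen and calcium) was at 271 TPM at P2, 109 at P4, 64.7 (SFM) and 62.1 (SCM) at P10, 491 (SFM) and 47.1 (SCM) at P25, and 841, 612 and 658 in IMOK replicates 1, 2 and 3. All 3 IMOK libraries lay above all mSGc libraries, the nearest of which was P25 in SFM. *Postn* (periostin) was at 394 TPM at P2, 28.4 at P4, 237 (SFM) and 168 (SCM) at P10, 23.2 (SFM) and 4.93 (SCM) at P25, and 31.3, 0.211 and 0.644 in IMOK replicates 1, 2 and 3. It differed widely among mSGc libraries, with P2 and both P10 libraries high and P4 and P25 low, and in IMOK it was below 1 TPM outside replicate 1. *Fstl1* (follistatin-like, a secreted glycoprotein of mesenchyme) was at 89.1 TPM at P2, 7.59 at P4, 1.33 (SFM) and 14.6 (SCM) at P10, 0.0652 (SFM) and 0.618 (SCM) at P25, and 306, 21.1 and 21.7 in IMOK replicates 1, 2 and 3. Of the mSGc libraries only P2 lay within the IMOK range, and P25 held the least. *Tgfbi*, an adhesion protein induced by TGF-beta, was at 2.54 TPM at P2, 5.78 at P4, 8.52 (SFM) and 12.7 (SCM) at P10, 16.8 (SFM) and 28.3 (SCM) at P25, and 52.0, 43.2 and 22.2 in IMOK replicates 1, 2 and 3. It was lowest at P2, the reverse of most matricellular genes.

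Small leucine-rich proteoglycans, which coat collagen fibrils, were scarce. *Bgn* (biglycan) was at 14.6 TPM at P2, 0.233 at P4, 0.273 (SFM) and 0.463 (SCM) at P10, 0.689 (SFM) and 0.533 (SCM) at P25, and 15.8, 3.84 and 2.98 in IMOK replicates 1, 2 and 3. The P2 library and IMOK replicate 1 held similar levels, and mSGc stayed below 1 TPM from P4 on. *Dcn* (decorin) was at 0.816 TPM at P2, 0.481 at P4, 0.104 (SFM) and 3.79 (SCM) at P10, 0 (SFM) and 0.764 (SCM) at P25, and 0, 0.278 and 0.359 in IMOK replicates 1, 2 and 3. Only P10 in SCM reached 1 TPM. *Lum* (lumican) had 2 counts at P4 (0.107 TPM), 3 at P25 in SCM (0.460 TPM) and 0 in the other 7 libraries. *Aspn* (asporin) had 3 counts at P2, 1 at P4, 0 (SFM) and 11 (SCM) at P10, 1 (SFM) and 0 (SCM) at P25, and none in IMOK. Its highest level was 0.739 TPM, at P10 in SCM.

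*Lox*, lysyl oxidase, which cross-links collagen and elastin, was at 189.6 TPM at P2, 5.41 at P4, 3.92 (SFM) and 14.7 (SCM) at P10, 0 (SFM) and 0.0884 (SCM) at P25, and 39.6, 0.547 and 0.658 in IMOK replicates 1, 2 and 3. It was high at P2 and in IMOK replicate 1, and nearly absent at P25, with 0 counts in SFM and 1 in SCM. *Mmp2*, the gelatinase of stromal cells, was at 7.02 TPM at P2, 6.34 at P4, 6.51 (SFM) and 2.86 (SCM) at P10, 0.696 (SFM) and 0.628 (SCM) at P25, and 18.2, 2.82 and 3.20 in IMOK replicates 1, 2 and 3. It stayed near its P2 level up to P10 in SFM and was lowest at P25. The inhibitors of metalloproteinases were abundant, with *Timp2* at 270.5 TPM at P2, 172 at P4, 141 (SFM) and 186 (SCM) at P10, 126 (SFM) and 90.9 (SCM) at P25, and 447, 367 and 348 in IMOK replicates 1, 2 and 3. All mSGc libraries lay below all IMOK libraries. *Timp3*, the inhibitor that binds to matrix, was at 294 TPM at P2, 261 at P4, 287 (SFM) and 227 (SCM) at P10, 0.729 (SFM) and 6.19 (SCM) at P25, and 232, 33.3 and 39.3 in IMOK replicates 1, 2 and 3. It was steady from P2 to P10 and low only at P25.

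*Ddr2*, a receptor for fibrillar collagen, was at 0.661 TPM at P2, 0.0806 at P4, 0.0787 (SFM) and 0.153 (SCM) at P10, 0.0142 (SFM) and 0 (SCM) at P25, and 0.326, 0.238 and 0.150 in IMOK replicates 1, 2 and 3. These values stayed under 1 TPM, and exons of *3110045C21Rik* overlap those of *Ddr2*. *Vim* (vimentin, the intermediate filament of mesenchymal cells) was at 532 TPM at P2, 322 at P4, 354 (SFM) and 134 (SCM) at P10, 311 (SFM) and 132 (SCM) at P25, and 456, 145 and 136 in IMOK replicates 1, 2 and 3. It was expressed in all libraries, was highest at P2 and in IMOK replicate 1, and was lower in both SCM libraries than in the SFM libraries of the same passage. The exons of the other genes among the 38 overlap no other gene of the annotation, although *BC100451* lies within the span of *Timp2*.

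The comparison of mSGc with IMOK asks which genes set the salivary line apart from another oral epithelial line. Among the matrix genes *Fbln1* and *Timp2* were lower in mSGc, and no gene was called higher. *Fbln1* (chromosome 15, 85036438 to 85116724 of mm9) averaged 8.54 ± 3.23 TPM (SD, n = 6) in mSGc and 32.6 ± 6.27 TPM (SD, n = 3) in IMOK, a log2 change of -1.71 (standard error 0.30), for which the quasi-likelihood test of edgeR gave a Benjamini-Hochberg adjusted p of 0.00558. *Timp2* (chromosome 11, 118162375 to 118216725) averaged 164 ± 62.0 TPM (SD, n = 6) in mSGc and 388 ± 52.7 TPM (SD, n = 3) in IMOK, a log2 change of -1.03 (standard error 0.26), with an adjusted p of 0.0265 in the same edgeR test. The SD over the mSGc libraries is a spread over passages and media, not over replicates. In these bulk libraries fewer cells of a type and less RNA per cell cannot be told apart. Of the 38 genes 33 had enough counts to be tested, and *Col3a1*, *Nid1*, *Mfap5*, *Lum* and *Aspn* did not. A gene can pass the count filter through the group where it is high, so counts and medians over the genes tested, here and below, describe these genes and support no difference of the set. At an adjusted p under 0.05, 0 of the 33 were higher in mSGc (6.58% of all 12885 genes tested were) and 2 were lower (8.3% were). At an unadjusted p under 0.05 there were 8 by edgeR, which is 24.2% of them against 30.4% of all genes tested, 2 higher (*Fbln2* and *Postn*) and 6 lower (*Col12a1*, *Col16a1*, *Fbln1*, *Sparc*, *Tgfbi* and *Timp2*). DESeq2 called 2 higher (*Col5a2* and *Postn*) and 2 lower, out of 1498 and 1402 calls over all genes, and voom called 0 higher and 3 lower, out of 895 and 1247. Of the cell type markers in the same edgeR fit *Krt14*, *Esrp2* and *Cdh1* of the 9 epithelial ones were higher in mSGc, and *Mylk* of the smooth muscle and myoepithelial list and *Cd68* were lower, calls that were each lost in 4 to 8 alternatives. The 33 log2 changes ran from -2.75 to 3.98, with a median of 0.25, and that of all genes tested was 0.00.

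Without overlap, 4 of the 33 genes tested were lower in every mSGc library than in every IMOK library (*Sparc*, *Timp2*, *Fbln1* and *Col16a1*), which held for 17.0% of all genes tested, and 0 were higher in every library (5.22% of all genes). *Postn* and *Fbln2*, the genes with the largest positive log2 changes of 3.98 (standard error 1.72) and 2.97 (standard error 1.28), did not pass the threshold. The large standard errors of these genes went with spreads of 4.93 to 394 TPM for *Postn* and 0.711 to 83.9 TPM for *Fbln2* within mSGc. Without IMOK replicate 1 *Postn* was called higher and only *Fbln1* lower, and the median over the genes tested became 1.25. Without P2 *Bgn* was also called lower and the median became -0.23. With both left out, 1 gene (*Postn*) was higher and 3 (*Bgn*, *Fbln1* and *Timp2*) were lower, with a median of 0.35. Of all genes 938 were higher and 980 lower without IMOK replicate 1, 787 and 965 without P2, and 900 and 917 without both. *Fbln1* remained called whichever single library was left out, with log2 changes from -1.87 to -1.58. *Timp2* was no longer called without P10 in SFM (log2 change -0.99), P25 in SFM (-0.99) or IMOK replicate 1 (-0.98), 2 (-1.05) or 3 (-1.06). It was also lost when mSGc in SFM alone were compared (log2 change -0.88). In that fit *Fbln2* was called higher and *Col12a1* and *Fbln1* lower (575 and 723 of all genes were). With passage and medium as terms *Fbln2* was called higher and *Col12a1*, *Fbln1*, *Fstl1*, *Tgfbi* and *Timp2* lower (712 and 932 of all genes were). With P10 as the only mSGc *Fbln1* (-1.43) and *Sparc* were called lower (243 of all genes were), and *Timp2* (-1.07) was not. Neither gene passed a test against a log2 change of at least 1.

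The passage series asks whether mSGc keep their profile in long-term culture. Among the matrix genes *Fstl1* and *Ctgf* fell with passage, and no gene rose past the threshold. Per doubling of the passage number, with medium in the fit, *Ctgf* (chromosome 10, 24315248 to 24318488 of mm9) changed by -1.68 on the log2 scale (standard error 0.21), for which edgeR's quasi-likelihood test gave a Benjamini-Hochberg adjusted p of 0.0382, and *Fstl1* (chromosome 16, 37777141 to 37836602) by -2.73 (standard error 0.17). *Nid1* (chromosome 13, 13529869 to 13604542) also passed the threshold, but it reached the count filter only at P2 and P4, where it is high, and so had to differ, and it is described by its counts alone. Between single libraries in SFM the P2 level of *Ctgf* was 51.1-fold (interval 47.6 to 55.0) that of P25. For *Nid1* it was at least 153-fold higher, since P25 in SFM had no counts. In the first step alone, from P2 to P4, the levels differed 10.7-fold (interval 7.83 to 15.1) for *Nid1*, 11.7-fold (interval 10.3 to 13.5) for *Fstl1* and 2.61-fold (interval 2.56 to 2.66) for *Ctgf*.

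Of the 38 genes 33 could be tested over passage, all but *Mfap5*, *Dcn*, *Lum*, *Aspn* and *Ddr2*. At an adjusted p under 0.05, 0 of them rose (0.0482% of all 12451 genes tested did) and 3 fell (0.442% did), *Nid1* among them, and at an unadjusted p under 0.05 there were 15 by edgeR (45.5% of them, against 13.2% of all genes tested), 2 with a positive and 13 with a negative change. DESeq2 called 2 rising (*Col17a1* and *Tgfbi*) and 8 falling (the 3 above with *Col1a1*, *Col5a2*, *Lox*, *Thbs1* and *Tnc*), out of 121 and 579 over all genes. With voom 0 rose and 4 fell, out of 10 and 65, the fourth being *Lox*. The change was negative for 27 of the 33 genes, against 49.2% of all genes tested, with a median of -0.47 against 0.00. By role the median was -1.17 for the 5 fibrillar collagen chains, -1.20 for the 4 enzymes and inhibitors, -0.68 for the 8 matricellular genes, -0.31 for 4 glycoprotein genes, -0.14 for the 2 fibril-associated collagens, -0.12 for the 3 basement membrane genes, -0.02 for the 3 chains of collagen VI and 0.18 for the 2 anchoring collagens, the only positive one. *Bgn* and *Vim* were the only genes of their roles that could be tested, with -1.07 and -0.10. Just short of the threshold lay *Lox* (-2.81, standard error 0.44, adjusted p = 0.0552 by edgeR) and *Tgfbi* (0.77, standard error 0.12, adjusted p = 0.0560 by edgeR).

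These calls depended on which libraries were in the fit. When the P2 library was left out 0 of the genes were called in edgeR's test, and when P25 in SFM was left out 0 were called as well. At an unadjusted p under 0.05 there were 11 without P2 (697 of all genes) and 12 without P25 in SFM (957 of all genes). The medians were -0.47 and -0.66. In both cases 0 of all genes tested passed an adjusted p of 0.05. The fit has 3 residual degrees of freedom with all libraries and 2 with 1 left out. The fitted changes kept their sign. For *Fstl1* the change was -2.73 with all libraries, -2.65 without P2 and -2.72 without P25 in SFM. For *Ctgf* it was -1.68, -1.80 and -2.10 in the same order. With only genes of at least 10 counts in every library 0 were called (6 at an unadjusted p under 0.05, and 1202 of all genes), and of all genes 0 rose and 3 fell. Without P4 only *Fstl1* was called, and *Ctgf*, at -1.64, was not (of all genes 2 fell and 0 rose). Without P10 in SFM 8 genes fell (*Col5a2*, *Ctgf*, *Fbn1*, *Fstl1*, *Lox*, *Nid1*, *Thbs1* and *Timp3*) and *Tgfbi* rose. Of all genes 250 fell and 79 rose in that fit, against 55 and 6 with all libraries. *Nid1* had too few counts to be tested without P2 or without P4. The sum of the smooth muscle and myoepithelial markers, given above, was also highest at P2, and *Cnn1* among them had counts only at P2 and P4. Among the fibroblast markers *Thy1* was highest at P2, while within mSGc their sum was highest at P25 in SCM. The part of contractile or fibroblast cells in the falling matrix genes was not tested.

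**Figure D2:**
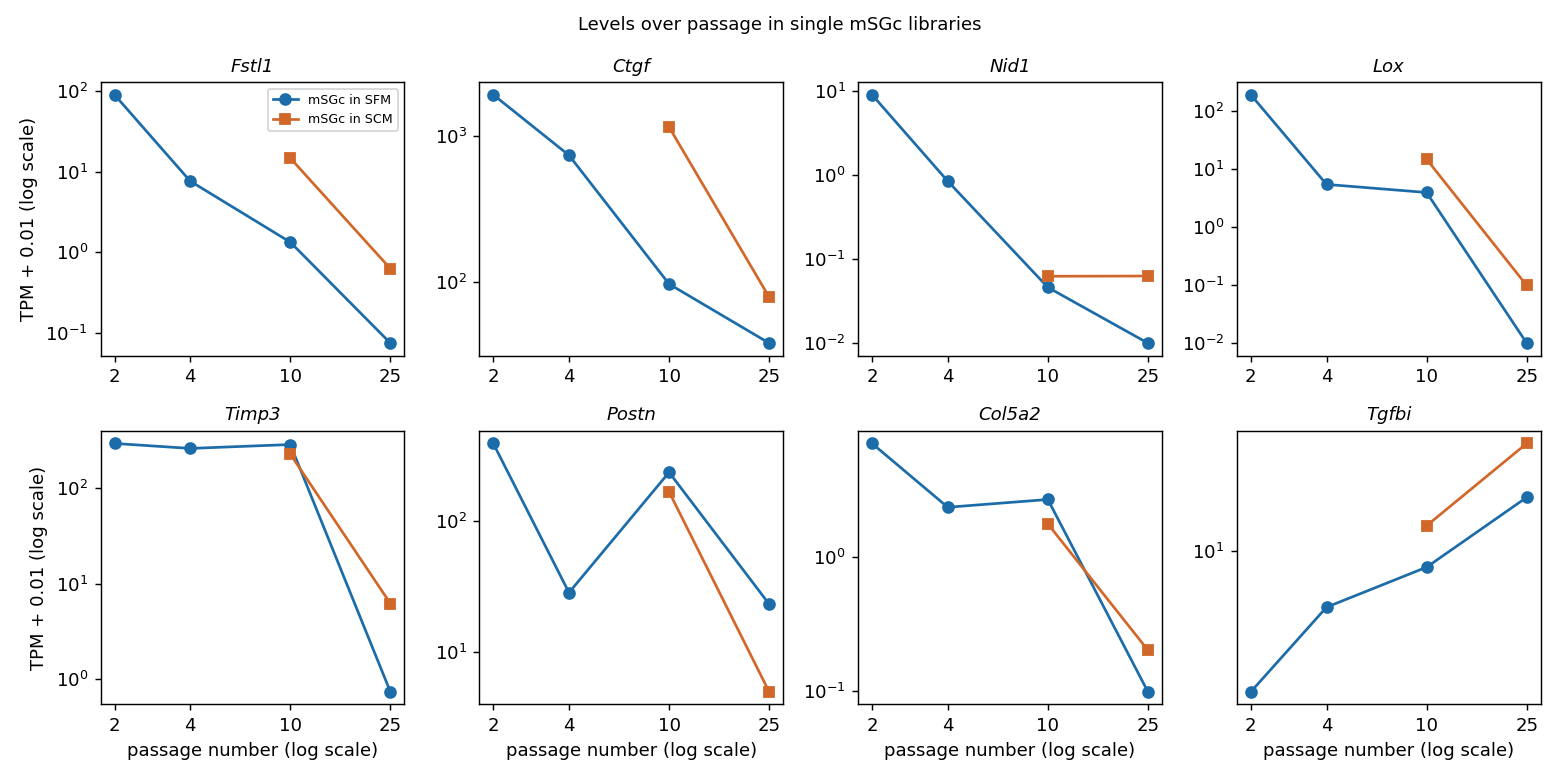
Level of 8 genes (TPM + 0.01, log axis) against passage number (log axis) in the mSGc libraries, each point 1 library, with SFM in blue circles and SCM in orange squares. *Fstl1*, *Ctgf*, *Nid1* and *Lox* decline from P2 on in SFM, *Timp3* and *Col5a2* drop between P10 and P25, and *Tgfbi* climbs.

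P10 and P25 cells were sequenced in both media, and a fit of P25 against P10 with medium as a block (1 residual degree of freedom) left out the P2 and P4 libraries. In it 7 of the 24 genes that could be tested passed the threshold with lower levels at P25 (4.44% of the 11938 genes tested did) and 1 with a higher level (3.22% did). Of the 7, the cross-linking enzyme *Lox* and *Col5a2* reached the count filter only at P10 and *Fstl1* and *Col6a1* in 1 of the P25 libraries, so they had to differ or nearly so, and the number is no support for a loss of the set. Both P25 libraries reached it for the metalloproteinase *Mmp2* with a log2 change of -2.60 (standard error 0.58), its inhibitor *Timp3* with -6.58 (standard error 0.81) and *Postn* with -3.95 (standard error 0.44). *Tgfbi* was higher at P25, with 1.24 (standard error 0.25). Of the 3 fibroblast markers tested in this fit *S100a4* was called higher at P25, with 1.94 (standard error 0.37). *Prrx1* was called lower, with -6.78, but it reached the count filter only at P10 and so had to differ. The part of these markers in the matrix genes was not tested. *Lox* had 65 and 335 counts at P10 and 0 and 1 at P25, in SFM and SCM, so P10 was at least 40.0-fold higher in SFM and 166-fold (interval 29.6 to 6586) higher in SCM. Counts at P25 were also low for other genes of the 7, with 5 and 4 for *Col5a2*, 2 and 7 for *Fstl1*, 18 and 6 for *Mmp2* and 20 and 3 for *Col6a1*. *Timp3* was 393-fold (interval 274 to 588) higher at P10 than at P25 in SFM and 36.7-fold (interval 29.8 to 45.6) in SCM. For *Postn* the same ratios were 10.2-fold (interval 9.40 to 11.1) and 34.1-fold (interval 25.9 to 45.8). *Timp3* was level from P2 to P10, with P2 at 1.03-fold (interval 0.992 to 1.06) the level of P10 in SFM, and was not called in the joint fit over all 6 libraries, where its log2 change per doubling was -1.62 (standard error 0.96). *Col6a1*, highest at P10 in SFM, had a change of opposite sign in that fit, at 0.11 (standard error 0.90).

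Growth in SCM rather than SFM asks how the line differs between a defined medium and one with serum and differentiation supplements. The genes with the largest fitted differences at an unadjusted p under 0.05 were *Fstl1* with a log2 change of 3.57 (standard error 0.43), *Ctgf* with 2.27 (standard error 0.50) and *Col12a1* with 2.06 (standard error 0.59) towards SCM, and *Fbln2* with -4.86 (standard error 0.91), *Sparc* with -2.48 (standard error 0.84), *Col7a1* with -1.82 (standard error 0.38) and *Vim* with -1.48 (standard error 0.27) towards SFM. In the joint fit 0 of 33 genes tested passed an adjusted p of 0.05 in either direction by edgeR (0.0241% of all 12451 genes were higher and 0.0% lower), with these 7 at an unadjusted p under 0.05 (21.2%, against 8.18% of all genes tested). DESeq2 called 2 higher (*Ctgf* and *Fstl1*) and 4 lower in SCM (*Col7a1*, *Fbln2*, *Sparc* and *Vim*), out of 193 and 78 over all genes, while voom called 0. The median log2 change was -0.39 over the 33 genes and -0.01 over all genes tested. Without P2 0 genes were called by edgeR (8 at an unadjusted p under 0.05, and 772 of all genes). Without P10 in SFM 2 genes were called higher (*Fstl1* and *Lox*) and 1 lower (*Fbln2*), and the median became 0.08. Of all genes 52 were called higher and 6 lower in that fit, against 3 and 0 with all libraries.

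When only the libraries of P10 and P25 were fitted, with passage as the block, *Fstl1* was called higher in SCM, with a log2 change of 3.25 (standard error 0.51), and *Col7a1* with -1.99 (standard error 0.23) and *Vim* with -1.47 (standard error 0.21) were called lower. That is 1 of 24 genes higher (0.754% of 11938 genes were) and 2 lower (0.276% were). *Fstl1* reached the count filter in 1 of the SFM libraries only, so it nearly had to differ. Of the 9 epithelial markers in the same fit *Krt18* was called higher in SCM, with 4 at an unadjusted p under 0.05 by edgeR. The part of these markers in the matrix genes was not tested. Between single libraries *Fstl1* was 11.0-fold (interval 7.17 to 17.9) higher in SCM than in SFM at P10, and 9.47-fold (interval 1.80 to 93.5) higher at P25, where SFM had 2 counts. *Ctgf* was 12.0-fold (interval 11.3 to 12.8) higher in SCM at P10 and 2.07-fold (interval 1.86 to 2.31) at P25. *Col12a1* was 7.44-fold (interval 6.74 to 8.23) higher at P10 and 1.36-fold (interval 1.17 to 1.59) at P25. *Vim* in SCM was at 0.379 (interval 0.357 to 0.403) of its SFM level at P10 and 0.423 (interval 0.392 to 0.457) of it at P25, and *Fbln2* at 0.183 (interval 0.134 to 0.244) and 0.0143 (interval 0.00685 to 0.0264). *Sparc* differed between media only at P25, with SCM at 0.960 (interval 0.868 to 1.06) of its SFM level at P10 and 0.0960 (interval 0.0859 to 0.107) of it at P25. Whether the media differed in their effect at P10 and P25 was not tested.

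The IMOK replicates carry the same label but differed in matrix genes. In replicate 1, 18 of the 31 genes with at least 1 CPM (counts scaled to library size with TMM factors) in a replicate were at least 2-fold above both other replicates (12.8% of the 12635 genes with that level were) and 1, *Lama2*, was at least 2-fold below them (9.05% were). With 1 library against a pair this was described and not tested. A gene could reach 1 CPM in replicate 1 alone and then had to lie above the others. The number therefore describes these genes and supports no difference of the set. *Fbn1*, *Postn*, *Lox* and *Col5a1*, given below, were under 1 TPM outside replicate 1. The 18 were *Col1a1*, *Col1a2*, *Col5a1* and *Col5a2* of the fibrillar collagens, *Col6a1*, *Col6a2*, *Col12a1*, *Fn1*, *Fbn1*, *Fbln2*, *Postn*, *Fstl1*, *Ctgf*, *Bgn*, *Lox*, *Mmp2*, *Timp3* and *Vim*. Among the widest gaps were those of *Fbn1*, which was 168-fold (interval 85.1 to 390.1) above replicate 2 and 156-fold (interval 79.1 to 363) above replicate 3, and of *Postn*, with ratios of 148-fold (interval 67.8 to 405) and 48.6-fold (interval 30.2 to 83.9). *Lox* was 72.4-fold (interval 45.0 to 125) and 60.2-fold (interval 38.4 to 100.3) above them, *Col5a1* 33.3-fold (interval 22.5 to 51.2) and 53.6-fold (interval 32.3 to 96.2), and *Fstl1* 14.5-fold (interval 13.4 to 15.7) and 14.1-fold (interval 13.0 to 15.3). The abundant genes *Fn1*, *Ctgf* and *Vim* were 3.68-fold (interval 3.62 to 3.75), 3.06-fold (interval 2.94 to 3.20) and 3.35-fold (interval 3.19 to 3.52) above replicate 3.

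Replicates 2 and 3 were close to each other, with a median absolute log2 difference of 0.32 over the 31 genes and 0.21 over all genes with 1 CPM (0.1 CPM added). The median log2 difference of replicate 1 from the mean of the pair was 1.44 for the 31 genes and -0.02 for all genes. Replicate 1 lay above both others for 26 of the 31 genes and for 5513 of all 12635. The same level of 1 CPM chose these genes, so these medians and counts too only describe them. Not all matrix genes took part. *Col17a1*, *Col18a1*, *Sparc*, *Timp2*, *Tnc* and *Thbs1* were within 2-fold of at least 1 other replicate, and *Fbln1* was lower in replicate 1 than in replicate 2. In the smooth muscle and myoepithelial list *Acta2* was 124-fold (interval 106 to 146) above replicate 2, *Tagln* 94.8-fold (interval 51.3 to 198) above it, and the sum over the 7 markers was 965 TPM against 10.3 and 15.6. The sum of the fibroblast markers was lowest in replicate 1, but that sum is carried by *S100a4*, at 4.94 TPM there against 119 and 77.5. The other markers went both ways. *Twist1* and *Twist2* were lower in replicate 1, *Pdgfra*, *Pdgfrb* and *Dpt* had more counts in it (25, 14 and 5, all below 1 TPM), and 2 of the 11 had no counts there against 4 and 5 in replicates 2 and 3. The part of other cells in the difference of replicate 1 was not tested.

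**Figure D3:**
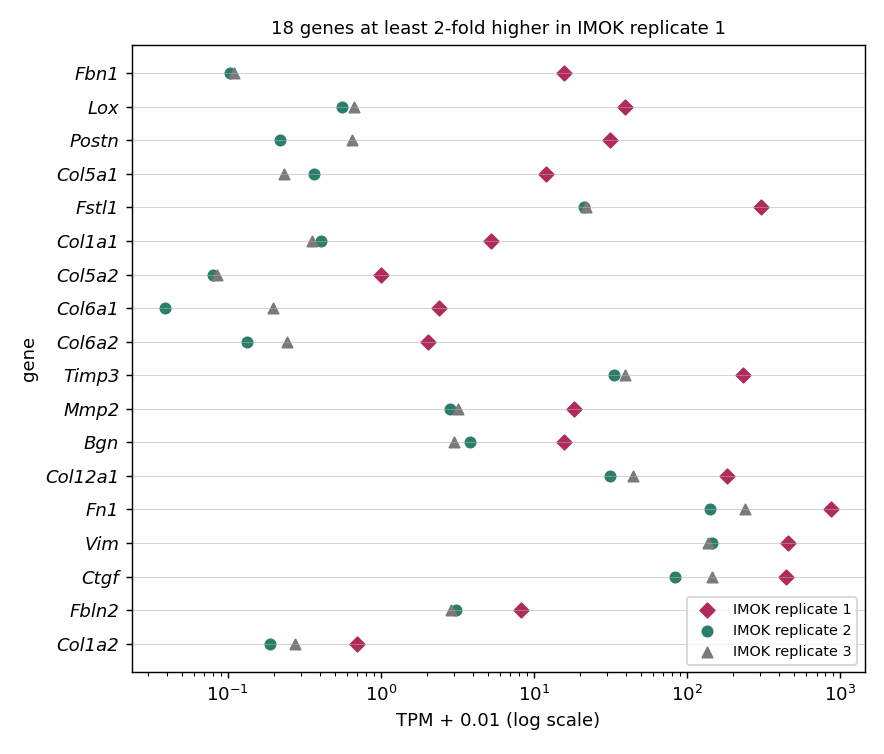
Level (TPM + 0.01, log axis) of the 18 genes that were at least 2-fold higher in IMOK replicate 1 (diamonds) than in replicates 2 (circles) and 3 (triangles), ordered by the ratio to the higher of these. Replicates 2 and 3 lie together for most genes, and replicate 1 lies to their right in all 18.

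Genes that build, cleave or bind the matrix were taken as further lists and read from the same fits. Of 20 basement membrane genes tested, 0 were higher and 5 lower in mSGc than in IMOK by edgeR (8 at an unadjusted p under 0.05), namely *Col4a3*, *Col4a4*, *Lama1*, *Fras1* and *Lamc1*, while DESeq2 called 1 higher and 3 lower and voom 0 and 5. Over all genes tested 6.58% were higher, 8.3% lower and 30.4% at an unadjusted p under 0.05, against which the counts of each list below can be read. The median was -0.47 (0.00 for all genes tested). *Col4a3*, a chain of specialised collagen IV, was at 0.148 to 3.91 TPM in mSGc and 26.1 to 40.2 in IMOK, and *Col4a4*, its partner, at 0.897 to 4.92 and 20.7 to 36.9. The lines did not overlap in either. *Lama1* reached the count filter only in IMOK and had to differ, so its call is no support, with at most 2 counts in an mSGc library. Of 25 genes of collagen biosynthesis and cross-linking, 3 were higher (*Plod2*, *Tll1* and *Glt25d1*) and 4 lower (*Pcolce*, *P4ha3*, *Loxl2* and *Plod3*), with 9 at an unadjusted p under 0.05 and a median of -0.29. *Pcolce*, an enhancer of procollagen processing, had a log2 change of -4.51 (standard error 0.40), and *Plod2*, which hydroxylates lysines of collagen telopeptides, one of 1.57 (standard error 0.28). The collagen chaperone *Serpinh1* was at 170.0 to 513 TPM in mSGc and 468 to 695 in IMOK.

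Of 26 matrix proteases and inhibitors, *Serpine2* and *Adamts1* were higher in mSGc than in IMOK and *Mmp11* and *Plat* lower, with 8 at an unadjusted p under 0.05 and a median of 0.21. *Serpine2* (a protease nexin) was at 48.5 to 287 TPM in mSGc and 5.14 to 10.3 in IMOK, a log2 change of 4.71 (standard error 0.68), and *Plat* (tissue plasminogen activator) at 0.601 to 7.31 and 60.6 to 68.1, a change of -3.77 (standard error 0.54). *Ctsl* (a lysosomal protease) was the most abundant, at 273 to 595 and 533 to 1016 TPM. Of 25 genes on the list for TGF-beta, *Itgb6* was higher and *Ltbp1* lower, with 5 at an unadjusted p under 0.05 and a median of -0.05. *Ltbp1* stores latent TGF-beta in the matrix and *Itgb6* is a subunit of an integrin that releases it. This list also holds *Ltbr*, which encodes the lymphotoxin beta receptor, does not belong to the pathway, and was its most abundant gene in 6 of the 9 libraries. Of 23 matrix receptors 3 were higher (*Itgb4*, *Itgb8* and *Ddr1*) and 2 lower (*Itgb3* and *Cd47*), with 11 at an unadjusted p under 0.05 and a median of 0.46, and *Sdc1* (syndecan) was the most abundant in mSGc at 477 to 833 TPM. Of 21 YAP and TEAD targets 0 were higher and 2 lower (*Igfbp3* and *Asap1*), with 5 at an unadjusted p under 0.05 by edgeR, a median of -0.01, and 1 higher and 2 lower by both DESeq2 and voom.

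*Col4a3*, *Col4a4*, *Pcolce* and *Serpine2* kept their calls in every alternative in which they could be tested, whereas *Lamc1*, *Itgb4*, *Itgb3*, *Cd47*, *Glt25d1*, *Loxl2* and *Adamts1* each lost theirs in 11 or more alternatives. *Ddr1* lost its call in 9 of 20, *Asap1* in 7 of 20, *P4ha3* in 5 of 19, *Itgb6* and *Tll1* in 4 of 20, and the others in 1 to 3. *Itgb6* was not called without IMOK replicate 2 or 3, nor *P4ha3* without IMOK replicate 1. Leaving out 1 library moved the number of receptors called from 0 to 5 for higher and from 0 to 1 for lower. For collagen biosynthesis the numbers were 1 to 4 and 2 to 5, and for basement membrane genes 0 and 4 to 5. Over all alternatives they were 0 to 7 and 0 to 2 for receptors, 0 to 4 and 1 to 5 for collagen biosynthesis, and 0 to 1 and 2 to 6 for basement membrane genes, of which *Fras1* and *Lama1* lost their calls with the P10 libraries as the only mSGc. Over passage *Adamts2* (a procollagen peptidase) and *Fkbp10* (a collagen chaperone) passed the threshold with falling levels, out of 26 genes of collagen biosynthesis, and *Edn1* (endothelin) fell out of 21 YAP and TEAD targets. *Fkbp10* reached the count filter only at P2 and P4 and *Adamts2* only at P2 and P10 in SCM, so neither call counts as a result of the list. *Adamts2* had 109 counts at P2, 5 at P4, 47 at P10 in SCM and none in the other 3 mSGc libraries. Its call was lost in 5 of 12 alternatives, among them voom and those without P4 or P25 in SFM, and that of *Fkbp10* in 3 of 12. *Fkbp10* was at 31.2 TPM at P2, 2.78 at P4, 0.501 (SFM) and 0.243 (SCM) at P10, 0.0452 (SFM) and 0.245 (SCM) at P25, and 149, 41.6 and 45.7 in IMOK replicates 1, 2 and 3. *Edn1* was at 56.8 TPM at P2, 12.2 at P4, 1.02 (SFM) and 21.3 (SCM) at P10, 0.853 (SFM) and 3.40 (SCM) at P25, and 15.2, 4.35 and 9.26 in IMOK replicates 1, 2 and 3. Like *Ctgf*, it was highest at P2 and next at P10 in SCM. Its call was lost in 10 of 16 alternatives, among them those without P2, P4, P10 in SCM, P25 in SFM or P25 in SCM. In the other 4 lists 0 genes passed over passage in edgeR's joint fit (0.442% of all genes tested fell, and 13.2% were at an unadjusted p under 0.05), with 6 of 19 basement membrane genes, 2 of 24 proteases and inhibitors, 11 of 24 genes for TGF-beta and 8 of 22 receptors at an unadjusted p under 0.05, with 4, 1, 4 and 4 falling by DESeq2 and with 1, 0, 1 and 0 by voom. In DESeq2 8 of the YAP and TEAD targets fell (579 of all genes did), and without P10 in SFM 7 did in edgeR (250 of all genes did). Medians per doubling ran from -0.33 for YAP and TEAD targets to -0.07 for collagen biosynthesis. Without the P2 library or P25 in SFM 0 genes of any list were called over passage. Between media 0 genes passed in any of the 6 lists in edgeR's joint fit, with 7, 8, 5, 5, 4 and 6 at an unadjusted p under 0.05 in the order basement membrane, biosynthesis, proteases, TGF-beta, receptors and YAP and TEAD targets, and with 2, 3, 3, 3, 0 and 3 called by DESeq2 and 0 by voom. Over all genes tested 8.18% were at an unadjusted p under 0.05.

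The fits of P10 and P25 alone called genes in most of these lists. They tested 17 basement membrane genes, 23 of collagen biosynthesis and cross-linking, 23 proteases and inhibitors, 24 genes for TGF-beta and 20 YAP and TEAD targets. Lower at P25 were *Col4a5* of the basement membrane genes, *Loxl4* and *Tgm2* of collagen biosynthesis and cross-linking, *Adamts1*, *Adam9* and *Mmp15* of the proteases, *Tgfb2* and *Tgfb3* of the genes for TGF-beta, and *Tgfb2*, *Fjx1* and *Rbms3* of the YAP and TEAD targets. Higher at P25 were *Pcolce2* of collagen biosynthesis and *Birc5* of the YAP and TEAD targets. Of 18 receptors 0 passed over passage by edgeR, with 3 at an unadjusted p under 0.05 (27.06% of all 11938 genes tested were). Higher in SCM were *Npnt* of the basement membrane genes, *Tgm2*, *Mmp15*, *Tgfb3* and *Igfbp3*, 1 in each list but the receptors, and *Serpine2* was lower. *Npnt* reached the count filter in 1 of the SFM libraries only, so it nearly had to differ. Of the 18 receptors 0 passed between media by edgeR, with 6 at an unadjusted p under 0.05 (11.76% of all 11938 genes tested were). The shares of all genes called at an adjusted p under 0.05 in these fits are those given above for the 38 genes.

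Promoter sequence from RefSeq (build GRCm38.p6, 250 bases before to 50 after a gene's start) was examined for 27 of the 38 genes, with *Cyr61* listed as Ccn1, in 32 promoters. Letters bound by TEAD factors (GGAATG), AP-1 (TGANTCA) and the E-box factors of the Snail and Zeb families (CACCTG) were looked up on both strands. GGAATG was in 5 of the 32 promoters (15.6%), those of *Col18a1*, *Col3a1*, *Col6a2*, *Cyr61* and *Nid1*, and in 14.7% of all 32851 promoters. TGANTCA was in 1 (3.12%), that of *Col6a1*, and in 7.81% of all. CACCTG was in 4 (12.5%), those of *Col16a1*, *Sparc*, *Timp2* and *Timp3*, and in 20.2% of all. A match is a description of the letters and not a site, and a window without one says only that these letters are not in it. Promoters of 3 genes whose lowest mSGc level was at P25 in SFM are shown (*Nid1* was also near the floor at P10), with matches in capitals, all on the plus strand: *Fstl1* at chr16:37776805-37777104, which holds none of these letters, *Nid1* at chr13:13437352-13437651, which holds GGAATG, and *Timp3* at chr10:86300162-86300461, which holds CACCTG.
Fstl1: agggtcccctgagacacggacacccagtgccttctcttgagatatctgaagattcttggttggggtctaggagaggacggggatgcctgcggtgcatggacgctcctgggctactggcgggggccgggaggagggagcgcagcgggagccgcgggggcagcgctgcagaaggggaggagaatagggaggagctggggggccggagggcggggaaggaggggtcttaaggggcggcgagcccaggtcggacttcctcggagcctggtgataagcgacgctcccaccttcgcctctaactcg
Nid1: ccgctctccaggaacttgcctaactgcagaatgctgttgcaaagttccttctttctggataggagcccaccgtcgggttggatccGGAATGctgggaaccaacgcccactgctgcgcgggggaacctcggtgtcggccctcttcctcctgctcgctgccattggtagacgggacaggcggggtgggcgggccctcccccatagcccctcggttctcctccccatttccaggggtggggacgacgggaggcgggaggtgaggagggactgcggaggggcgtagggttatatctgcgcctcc
Timp3: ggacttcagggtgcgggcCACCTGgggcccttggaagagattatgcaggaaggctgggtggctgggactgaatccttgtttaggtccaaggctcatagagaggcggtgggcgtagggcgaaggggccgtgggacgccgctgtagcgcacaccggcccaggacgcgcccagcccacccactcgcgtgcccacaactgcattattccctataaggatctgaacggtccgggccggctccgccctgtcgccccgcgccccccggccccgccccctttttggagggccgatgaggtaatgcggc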

How the data were processed

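Gene counts were used as deposited by the authors, whose processing notes name TopHat2 2.1.1, Bowtie2 2.2.6 and the mm9 genome for alignment, featureCounts 1.5.1 for counting and DESeq2 1.12.4 for their own analysis. Strandedness, multi-mapping reads and the annotation release were not stated. TPM was computed from counts and the deposited exon lengths. Genes passing filterByExpr were tested in R 4.3.3 with edgeR 4.0.16 (TMM factors, quasi-likelihood fits, Benjamini-Hochberg adjustment over all genes tested, threshold 0.05), with DESeq2 1.42.0 and limma 3.58.1 (voom) as alternatives. mSGc were compared with IMOK (7 residual degrees of freedom) and fitted on log2 passage number and medium (3 residual degrees of freedom). The code was tested on simulated data. Tables and figures used Python 3.11.15, pandas 2.3.3, numpy 2.4.6, scipy 1.17.1 and matplotlib 3.10.9. The members and lists were chosen with earlier results of these data known. Genes were named by rule, as called, listed in the plan or highest in a list, but *Tgfbi*, *Cnn1*, genes of further lists called in the fits of P10 and P25 alone, and called genes beyond 4 per further list were named after their values were seen.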

Additional observations from a re-analysis of the deposited data

Results flagged for a closer look

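Among the 6 mSGc libraries a gene's highest value stood far from the others in 14 of the 33 genes looked at. At P2 this held for *Fn1* (1598 TPM), *Lox* (189.6), *Fstl1* (89.1), *Bgn* (14.6), *Col1a2* (9.88), *Nid1* (8.91), *Col5a2* (7.08), *Col1a1* (6.68), *Col5a1* (2.47) and *Mfap5* (1.34). At P10 in SFM it held for *Col6a1* (14.6 TPM) and *Col6a2* (4.49), and at P10 in SCM for *Col12a1* (59.9) and *Dcn* (3.79). These libraries differ in passage and medium and are not replicates. The rule's rate of about 1 in 20 groups by chance assumes normally distributed values of like samples, so it is no measure here. No share over all genes is given for this count, so it describes these genes and sets them apart from no others. The step from P10 to P25 went in opposite directions in the media for 7 of the 20 genes with more than 3 counts in all 4 libraries. The log2 change in SFM minus that in SCM was 3.67 for *Fbln2*, 3.32 for *Sparc*, 2.46 for *Col16a1*, 2.15 for *Cyr61*, 2.12 for *Thbs1*, 1.82 for *Tnc* and -0.278 for *Col17a1*. The change from SFM to SCM had opposite signs at P10 and P25 for 9 of the 20 genes. The value at P10 minus that at P25 was -3.42 for *Timp3*, -1.72 for *Col5a2*, -1.33 for *Col18a1*, 2.46 for *Col16a1*, 2.15 for *Cyr61*, 1.82 for *Tnc*, 0.868 for *Timp2*, 0.367 for *Fn1* and 0.275 for *Fbln1*. With 1 library per condition these differences between media and passages were not tested. Their counts too are given without a share over all genes and describe these genes only.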

How the results depend on the processing

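No alternative reversed a change called in the fits over all libraries, but the number of genes called varied. Higher in mSGc than in IMOK were 0 genes, against 2 in DESeq2, 1 with mSGc in SFM only, 1 with passage and medium as terms, and 0 to 1 when 1 library was left out. Lower were 2, against 0 when a log2 change of at least 1 was required, 5 with passage and medium as terms, and 1 to 3 when 1 library was left out. Rising with passage were 0, against 2 in DESeq2, 1 without a filter, 1 in P10 and P25 alone and 0 to 1 when 1 library was left out. Falling with passage were 3, against 8 in DESeq2, 0 among genes with at least 10 counts in every library, 1 for a log2 change of at least 1, 7 in P10 and P25 alone and 0 to 8 when 1 library was left out. Higher in SCM were 0, against 2 in DESeq2, 1 without a filter, 1 in P10 and P25 alone and 0 to 2 when 1 library was left out, and lower were 0, against 4 in DESeq2, 2 in P10 and P25 alone and 0 to 1. Chosen after seeing the data, the bias-adjusted edgeR fit called 1 rising gene and 1 higher in SCM, and leaving out P2 and IMOK replicate 1 together gave 1 gene higher in mSGc. Above both other IMOK replicates by 4-fold were 11 genes instead of 18, and at 10 CPM or more 0 instead of 1 lay below. In the edgeR, DESeq2 and voom alternatives the Benjamini-Hochberg adjusted p spanned 1.76e-05 to 0.113 for *Fbln1*, 0.00399 to 1 for *Timp2*, 6.23e-28 to 0.279 for *Fstl1* over 15 alternatives and 2.41e-15 to 0.452 for *Ctgf* over 16. *Nid1* could be tested in 12, the others having too few counts. No p-value is given for it, since it reached the count filter only where it is high and had to differ. No paired analysis was possible because no replicate number ties a library of one group to one of another, and in the fits of P10 and P25 alone medium or passage served as the block. Each mSGc condition has 1 library, so passage and medium effects rest on single cultures, and line, medium and experiment differ together between mSGc and IMOK. The cause of the high matrix levels at P2 and in IMOK replicate 1 was not tested.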
